A study of Mus musculus with 10 samples.

Results

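Igkv8-34, Igkv6-32 and Igkv8-30 are 3 variable (V) segments of the mouse immunoglobulin kappa locus at which a distant DNA break was often found joined. They were chosen for description from their junction counts summed over these libraries, so how many junctions they hold beside other segments is given without a test. Their levels were tested only between treatments or libraries. A junction was assigned to a segment when it mapped to the segment or within 500 bp of either end. This gave 687 junctions, of which 382 lay at Igkv6-32, 155 at Igkv8-30 and 150 at Igkv8-34. They made up 11.7% of the 5859 junctions in the kappa locus (chr6:67555636-70726754, mm10). The 3 segments are among 167 annotated kappa V and joining (J) segments, and they held 23.6% of the 2910 junctions assigned to a V segment.

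The junctions came from high-throughput genome-wide translocation sequencing of an Abelson-transformed pre-B cell line of C57BL/6 origin that is deficient in Lig4, the ligase of classical non-homologous end joining. In this assay 1 fixed break, the bait, is amplified and read into whatever sequence (the prey) has been joined to it. The bait was a zinc-finger nuclease cut on chromosome 6. Its position was estimated from the bait ends as 41554976, 28.5 Mb below Igkv6-32. In all, 68350 junctions in 10 libraries were used, 2039 to 13404 per library. The labels do not say whether libraries came from separate cultures, so p-values over libraries cover only the spread between these libraries.

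Cells of every library, controls included, were arrested in G1 with imatinib for 48 h, and the nuclease was induced with 1 µg/ml doxycycline after 24 h. There were 2 untreated libraries and 2 with etoposide, a drug that traps topoisomerase II on cut DNA. Cells received 50 µM of it for 2.5 h, then were washed and kept 12 h in medium. There was 1 library each for IFN, IFN with etoposide, DRB, and DRB with etoposide. DRB, an inhibitor of transcription, was given 2 h before etoposide or AsiSI. What IFN stands for and its dose are not stated in the labels. The remaining 2 libraries, AsiSI and DRB with AsiSI, came from cells in which the restriction enzyme AsiSI was induced with doxycycline and, 20 h later, 1 µM tamoxifen. By their read names the libraries belong to 4 sequencing runs. Run A holds replicate 1 of untreated and of etoposide. Run B holds the IFN and DRB libraries beside untreated replicate 2, run C every other library that received etoposide, and run D the AsiSI pair. No read name occurred in more than 1 library.

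Kappa V segments are cut by the RAG recombinase, which pre-B cells arrested in G1 express, at the border between a segment and its recombination signal. The signal of a kappa V segment is a heptamer, a 12-base spacer and a nonamer. Each cut leaves a coding end, which carries the segment and is first closed as a hairpin that must be opened, and a blunt signal end, which carries the heptamer. Classical end joining normally joins a V coding end to a J coding end and the signal ends to each other, and without Lig4 broken ends can be joined by alternative pathways that often use short stretches of shared sequence.

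The signals of the 3 segments were read from the prey parts of the sequenced junctions and are shown because every position below is counted from them. Each line gives the last 70 bases of the segment and the 40 bases after it, 5′ to 3′ on the minus strand of mm10. The heptamer and the nonamer are in capitals, and n or N marks a base that no junction read covered. Igkv8-34 spans chr6:70044072-70044181, Igkv6-32 chr6:70073984-70074093 and Igkv8-30 chr6:70117021-70117130.
Igkv8-34: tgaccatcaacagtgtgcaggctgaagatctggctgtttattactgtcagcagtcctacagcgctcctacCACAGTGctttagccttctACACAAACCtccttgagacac
Igkv6-32: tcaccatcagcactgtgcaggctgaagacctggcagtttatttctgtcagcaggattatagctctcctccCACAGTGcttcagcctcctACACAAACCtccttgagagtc
Igkv8-30: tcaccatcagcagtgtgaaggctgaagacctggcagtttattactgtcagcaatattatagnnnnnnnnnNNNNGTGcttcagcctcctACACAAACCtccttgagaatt

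In Igkv8-34 and Igkv6-32 the heptamer CACAGTG began at the first base after the annotated segment, and both have the nonamer ACACAAACC after a spacer of 12 bases. At Igkv8-30, 13 bases around the border were not covered by reads. Its last 3 heptamer bases, spacer and nonamer lay at the same distances from the annotated end, which was therefore taken as its border. The 3 segments are close relatives: the last 100 bases were identical at 84.0% of compared positions between Igkv8-34 and Igkv6-32, 87.9% between Igkv8-34 and Igkv8-30, and 90.1% between Igkv6-32 and Igkv8-30. In the first 60 bases after the border these values were 70%, 85.7% and 75%. Of the 687 prey reads, 613 matched their own segment exactly, and 0 of these also matched another of the 3 exactly. The other 74 stand where the deposited alignment put them.

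The gene table places Igkv8-34 at chr6:70044112-70044678, Igkv6-32 at chr6:70074024-70074584 and Igkv8-30 at chr6:70117061-70117617. It gives no exons for V segments, so positions are stated against the segment border only. All 3 read from high to low coordinates, and gaps of 29.3 kb and 42.5 kb separate them. Junctions were compared here at annotated V segments only, and the gaps between segments were not counted. The annotated V segments nearest to the 3 held few junctions, with 10 at Igkv1-35, 5 at Igkv7-33, 2 at the pseudogene Igkv8-31 and 1 at Igkv6-29. Per kb of window this was 0.617 to 5.80 junctions, against 245 at Igkv6-32, 99.6 at Igkv8-30 and 95.7 at Igkv8-34.

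Outside the 3 segments the V segments with most junctions were Igkv11-114, annotated as a pseudogene, with 230 (157 per kb of window), Igkv1-117 with 192 (111 per kb) and Igkv11-125 with 157 (106 per kb). Igkv6-32 had the most junctions of all annotated segments, and Igkv8-30 and Igkv8-34 ranked 5 and 6. Without the AsiSI libraries, Igkv6-32 ranked 1, Igkv8-34 4 and Igkv8-30 12. Of the other 19 annotated segments of the Igkv6 and Igkv8 families, 15 had at least 1 junction and 7 at least 10, with a median of 3. Over all 162 annotated V segments, the 3 included, 118 had at least 1 junction and 42 at least 10, and the median was also 3. Whether the families hold more junctions than other V segments was not tested. The most joined relatives were Igkv8-27 with 82 junctions and Igkv6-25 with 71. The functional J segments, to which V segments are normally joined, held 84 (Igkj1), 24 (Igkj2), 22 (Igkj4) and 23 (Igkj5) junctions, with each junction given to the nearest segment since their windows overlap.

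The flank around the edge of the 500 bp window held fewer junctions than the first 100 bp, but junctions continued beyond the edge. Between 401 and 500 bp from the segment there were 1 junction at Igkv8-34, 15 at Igkv6-32 and 3 at Igkv8-30, and between 501 and 600 bp, just outside, there were 3, 12 and 6. Inside the segment itself lay 71, 209 and 66 junctions, and in the first 100 bp of flank 65, 122 and 77.

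Igkv6-32 was found joined to the bait in every library. It had 7 and 45 junctions in untreated replicates 1 and 2, 5 and 31 in etoposide replicates 1 and 2, 16 in the IFN library, 18 in IFN with etoposide, 23 in DRB, 11 in DRB with etoposide, 102 in AsiSI and 124 in DRB with AsiSI. As a share of the kappa junctions of each library this ranged from 2.49% (etoposide replicate 1) to 7.92% (AsiSI), with a median of 5.97%. It had the most junctions of the 3 in 9 of the 10 libraries, the exception being etoposide replicate 1, where Igkv8-34 had 6.

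Igkv8-34 had 4 and 33 junctions in the untreated replicates, 6 and 15 in the etoposide replicates, 14 in the IFN library, 7 in IFN with etoposide, 12 in DRB, 6 in DRB with etoposide, 27 in AsiSI and 26 in DRB with AsiSI. Its share of kappa junctions ran from 1.5% (DRB with AsiSI) to 4.82% (untreated replicate 2), with a median of 2.93%. The lowest share came from the library with the most kappa junctions, 1730.

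Igkv8-30 had 4 and 6 junctions in the untreated replicates, 1 and 12 in the etoposide replicates, 11 in the IFN library, 3 in IFN with etoposide, 2 in DRB, 6 in DRB with etoposide, 49 in AsiSI and 61 in DRB with AsiSI. Its share ran from 0.498% (etoposide replicate 1) to 3.80% (AsiSI), with a median of 2.11%. Igkv8-34 had more junctions than Igkv8-30 in 6 libraries, as many in 2 and fewer in 2, the latter being the AsiSI libraries. These held 389 of all 687 junctions (56.6%): 226 at Igkv6-32, 110 at Igkv8-30 and 53 at Igkv8-34. Without them, Igkv6-32 had 156, Igkv8-34 97 and Igkv8-30 45.

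**Figure D1:**
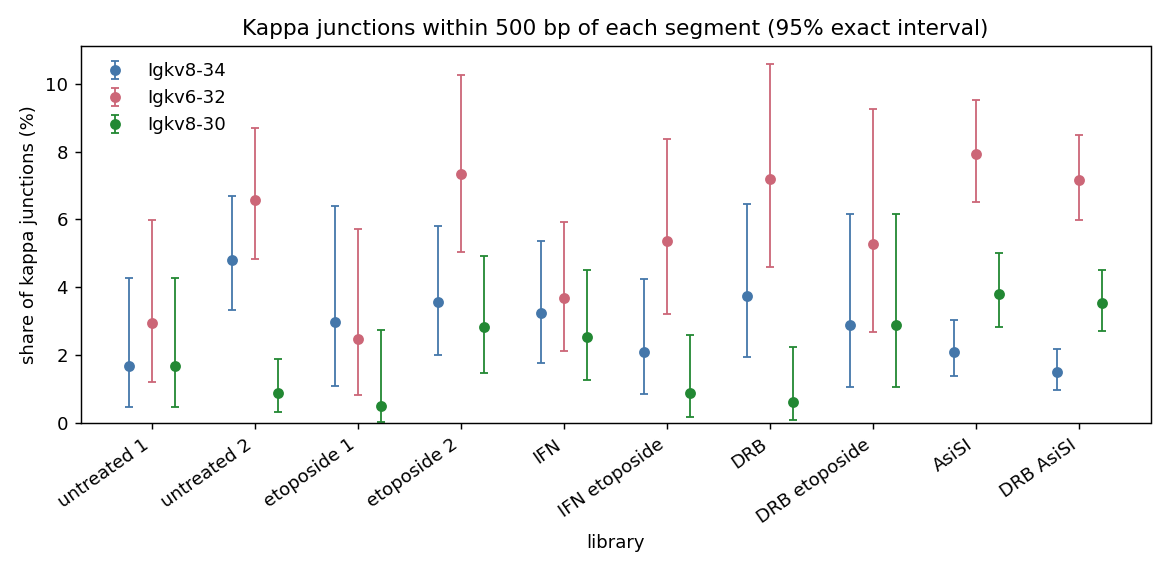
Share of the kappa junctions of each library that lay within 500 bp of Igkv8-34, Igkv6-32 or Igkv8-30 (y axis, percent; x axis, the 10 libraries). Points are single libraries and bars are exact 95% Clopper-Pearson intervals, which cover counting error only. Igkv6-32 is highest in 9 of 10 libraries, and Igkv8-30 lies above Igkv8-34 only in the AsiSI libraries.

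Together the 3 segments took 6.33% of kappa junctions in untreated replicate 1 (15 of 237; exact 95% Clopper-Pearson interval 3.59 to 10.2) and 12.3% in replicate 2 (84 of 685; 9.90 to 15.0). In etoposide replicate 1 the share was 5.97% (12 of 201; 3.12 to 10.2) and in replicate 2 it was 13.7% (58 of 422; 10.6 to 17.4). Both libraries of run A were low and both replicates numbered 2 were high, so the treatments overlapped.

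IFN gave a share of 9.47%, or 8.36% when combined with etoposide, and DRB 11.6%, or 11.1% when so combined. AsiSI gave 13.8%, and 12.2% after DRB. Prey alignments of these junctions were longest in run A, where the library medians were 255 and 243 bp, and 63 to 92 bp in other runs. Its part in the low shares of that run was not tested.

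Etoposide was compared with its untreated controls in the 2 replicates of each. The etoposide libraries had a mean share of 9.86% ± 5.50 and the untreated ones of 9.30% ± 4.20 (SD, n = 2 each), a difference of 0.561 percentage points. The two-sided exact permutation test gave p = 1.0, in a design that cannot go below 0.33. Within replicate 1 the difference was -0.359 points and within replicate 2 it was 1.48 points, so the sign was not shared. Without untreated replicate 1 the difference turned to -2.41 points, and without etoposide replicate 2 to -3.33 points.

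A second measure used the junctions within 1 Mb of the bait break as the denominator. Per 1000 such junctions the 3 segments had 13.3 and 15.9 in the untreated replicates and 10.0 and 14.5 in the etoposide replicates. The means were 14.6 ± 1.83 and 12.2 ± 3.14 (SD, n = 2 each), a difference of -2.40, and the two-sided exact permutation test gave p = 0.667. The groups overlapped.

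The value was 11.3 with IFN and 8.71 with IFN and etoposide, and 11.8 with DRB and 10.2 with DRB and etoposide. In these 4 pairs the library with etoposide was 9.27 to 24.9% below its partner, by 2.24 ± 0.879 junctions per 1000 on average (SD, n = 4 pairs), and the exact sign-flip test gave p = 0.125, the smallest that 4 pairs allow. This comparison over 4 pairs was added after the values were seen. Only the pair of replicate 1 lies within a sequencing run (13.3 and 10.0), and in the other 3 pairs etoposide cannot be told apart from run C against run B. All kappa junctions per 1000 moved with them. They numbered 211 and 168 without and with etoposide in replicate 1, 130 and 105 in replicate 2, 119 and 104 under IFN, and 102 and 92.2 under DRB, lower with etoposide in 4 of 4 pairs (exact sign-flip p = 0.125). The AsiSI libraries had the highest values for the 3 segments, 24.0 and 20.1 per 1000.

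**Figure D2:**
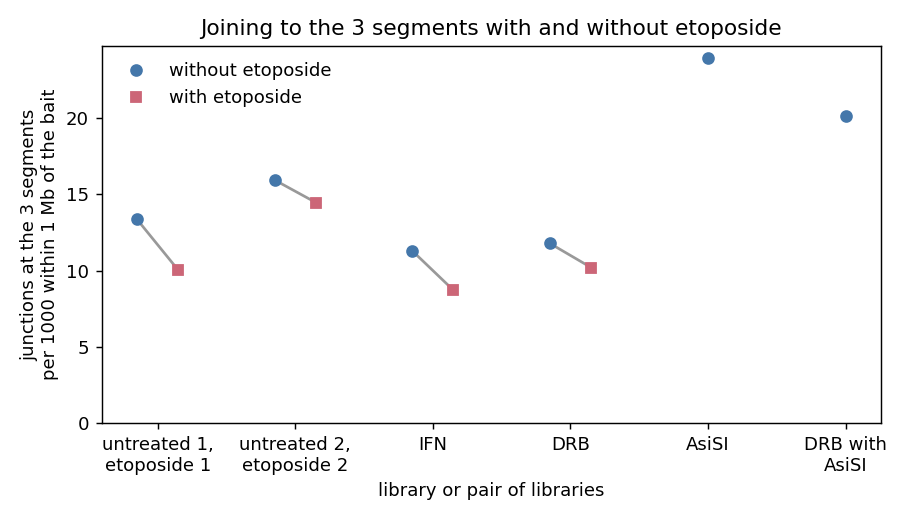
Junctions at Igkv8-34, Igkv6-32 and Igkv8-30 together per 1000 junctions within 1 Mb of the bait break (y axis) in each library (x axis). Circles are libraries without etoposide, squares those with it, and lines join each pair; in all 4 pairs the square lies below the circle, and the AsiSI libraries are highest at 24.0 and 20.1.

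The share of kappa junctions at each segment was then compared between 2 libraries at a time with Fisher's exact test, for every annotated segment with at least 10 junctions in a pair. Over 9 pairs in which the libraries differ by etoposide, DRB or IFN, 128 tests were made and 0 passed an adjusted p of 0.05 (Benjamini-Hochberg, 0.0% called), with 10 at an unadjusted p under 0.05. The 3 segments accounted for 22 of these tests and 0 calls, 3 of them unadjusted. This test measures counting error between 2 libraries and not the spread between cultures. In 4 of the pairs both libraries come from the same sequencing run. In the other 5, among them every etoposide pair but replicate 1, treatment and run cannot be told apart. The IFN and DRB libraries with etoposide were set against etoposide replicate 1, which lies in run A. Etoposide replicate 2 lies in run C with them, and with it as their control 132 tests gave 0 calls.

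The 3 lowest were as follows. Igkv8-30 took 2.84% of kappa junctions in etoposide replicate 2 and 0.876% in untreated replicate 2 (Fisher's exact test, p = 0.0147, adjusted p = 0.552). With IFN it took 2.54%, against the same 0.876% (exact p = 0.0416, adjusted p = 0.552). Igkv6-32 took 3.70% with IFN and 6.57% in untreated replicate 2 (exact p = 0.0426, adjusted p = 0.552). All 3 comparisons use the same untreated library, and none passed after adjustment. The other segments of the Igkv6 and Igkv8 families gave 12 tests with 0 calls and the J segments 14 tests with 0 calls.

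DRB did not move the segments past the threshold in the AsiSI libraries, where the counts were highest. Igkv6-32 had 7.17% with DRB and AsiSI and 7.92% with AsiSI (Fisher's exact test, adjusted p = 0.952). Igkv8-30 had 3.53% and 3.80% (exact test, adjusted p = 0.996), and Igkv8-34 1.5% and 2.10% (exact test, adjusted p = 0.846).

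Igkv8-30 and Igkv8-34 stood in opposite order in the AsiSI libraries. Igkv8-30 took 3.80% of kappa junctions with AsiSI and 0.876% in untreated replicate 2, and 3.53% with DRB and AsiSI and 0.625% with DRB. Igkv8-34 took 2.10% and 4.82%, and 1.5% and 3.75%. Igkv6-32 took 7.92% and 6.57%, and 7.17% and 7.19%. The junctions of the AsiSI libraries weighed most in the choice of these segments, so this is a description with no test. Over all segments, 8 of 24 tests (33.3%) were called for AsiSI against untreated replicate 2 once these pairs were added to the 9. For DRB with AsiSI against DRB, 4 of 23 (17.4%) were called. Together with the 9 other pairs this made 12 of 175 tests (6.86%), against 0 without the added pairs. The 3 segments are part of these totals, with 28 of the 175 tests and 3 of the 12 calls. Those 3 calls are no result for them, because they were chosen from these same counts. The AsiSI libraries also form a run of their own, so AsiSI induction, tamoxifen and run cannot be told apart.

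Igkv8-27 and Igkv19-93 were the V segments with at least 50 junctions whose split over the 10 libraries was most like that of the 3 segments. The measure was the total variation distance between the profiles over 10 libraries, which was 0.0906 for Igkv8-27 and 0.128 for Igkv19-93 among 13 candidates. These libraries share the depth of each run, which shapes every such profile.

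Strand tells which end of the cut was joined. All 3 segments read from high to low coordinates, so a prey on the plus strand that starts inside the segment runs away from the cut into the segment and stands on the coding-end side. A prey on the minus strand that starts in the flank runs away into the signal flank and stands on the signal-end side. A prey of the opposite direction on either side runs towards the cut.

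Both strands were used about equally, with 349 plus and 338 minus junctions. The plus strand had 77 of 150 at Igkv8-34, 200 of 382 at Igkv6-32 and 72 of 155 at Igkv8-30. The plus strand gives the deletion-type orientation between bait and prey on chromosome 6 and the minus strand the inversion type.

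Of all 687 junctions, 335 (48.8%) lay on the coding-end side and 258 (37.6%) on the signal-end side, and 94 (13.7%) ran towards the cut. At Igkv8-34 the coding-end side had 48.0% and the signal-end side 40.7%, and at Igkv8-30 the values were 45.8% and 48.4%. Igkv6-32 had 50.3% and 31.9%. The window is unequal around the cut. It holds the segment and its far 500 bp flank on the coding-end side, but only 500 bp on the signal-end side. Within 200 bp of the border, coding and signal ends numbered 55 and 59 at Igkv8-34, and 155 and 115 at Igkv6-32. At Igkv8-30 they numbered 54 and 73, and at the 3 segments together 264 and 247. Junctions running towards the cut were 17.8% at Igkv6-32 (68), 11.3% at Igkv8-34 (17) and 5.81% at Igkv8-30 (9).

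The coding-end share was compared between the segments in libraries with at least 10 junctions of each. It was 49.1% ± 10.6 at Igkv6-32 and 41.5% ± 4.33 at Igkv8-30 (SD, n = 4 libraries), a difference of 7.58 ± 8.41 points that was positive in 4 of 4 libraries (exact sign-flip p = 0.125, the smallest possible, adjusted p = 0.375). Igkv8-34 differed from Igkv6-32 by -5.43 ± 9.60 points over 6 libraries (exact p = 0.25) and from Igkv8-30 by 2.62 ± 5.91 points over 4 (exact p = 0.5).

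Orientation could be read from the signal in 34 other V segments, which held 1604 junctions. Over the 10 libraries the coding-end share was 51.7% ± 13.4 at the 3 segments and 54.9% ± 4.18 at the others (SD, n = 10). The difference of -3.22 ± 11.9 points was higher in 5 and lower in 5 libraries (exact sign-flip p = 0.416). At the 3 segments the lowest value was 30.4% (DRB with etoposide, 23 junctions) and the highest 80.0% (untreated replicate 1, 15 junctions).

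No junction of the 3 segments that ran away from the cut lay at the border or within 2 bp of it. This count was 0 of 264 coding-end and 0 of 247 signal-end junctions within 200 bp, which allows a share of up to 1.14% and 1.21%, counting error only. Fewer than 10 bases were missing from 4 coding ends and 6 signal ends, and the closest stood 8 bp and 4 bp from the border. At the other V segments with an orientation, 3 of 551 coding-end and 8 of 425 signal-end junctions lay within 2 bp. The planned comparison of signal ends with coding ends exactly at the cut had 0 on both sides in every library and gives no difference to test (exact sign-flip p = 1.0).

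The joined ends had instead lost longer stretches. On the coding-end side the median loss within 200 bp was 39.0 bases at Igkv8-34, 45.0 at Igkv6-32 and 38.5 at Igkv8-30, and on the signal-end side it was 40, 32 and 32. Losses of 20 to 79 bases made up 178 of the 264 coding ends and 194 of the 247 signal ends. Another 71 coding-end and 11 signal-end junctions lay beyond 200 bp, within the window. Where bait and prey share bases, both sides are counted as keeping them, so these losses are the smallest the reads allow.

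Signal ends were compared with coding ends in the 6 libraries with at least 10 junctions of each. The mean of the library medians was 34.5 ± 5.55 bases lost at signal ends and 46.6 ± 9.61 at coding ends (SD, n = 6). The difference of -12.1 ± 5.88 bases was negative in 6 of 6 libraries, from -3.50 (DRB with AsiSI) to -19.5 (IFN). The exact sign-flip test gave p = 0.0312, the smallest possible, and an adjusted p of 0.125 over the 4 comparisons made, which does not pass. This comparison was added after the positions were seen. Over all libraries Igkv6-32 gave 155 of the 264 coding ends within 200 bp, and 44 of its 155 lay 60 to 99 bases inside the segment. Such junctions entered as coding-end losses, and their part in the difference was not tested.

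By segment the signs differed. Igkv6-32 had -13.5 ± 6.76 bases in 3 libraries (exact p = 0.25, the smallest possible) and Igkv8-30 -6.25 ± 0.354 in 2 (exact p = 0.5, the smallest possible), while Igkv8-34 had 2.25 ± 1.06 in 2 (exact p = 0.5). Compared with the other V segments, the 3 segments lost 0.938 ± 11.6 bases more at coding ends over 8 libraries (exact p = 0.977), or -3.00 bases without the IFN library, and 3.71 ± 7.56 more at signal ends over 7 (exact p = 0.438).

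**Figure D3:**
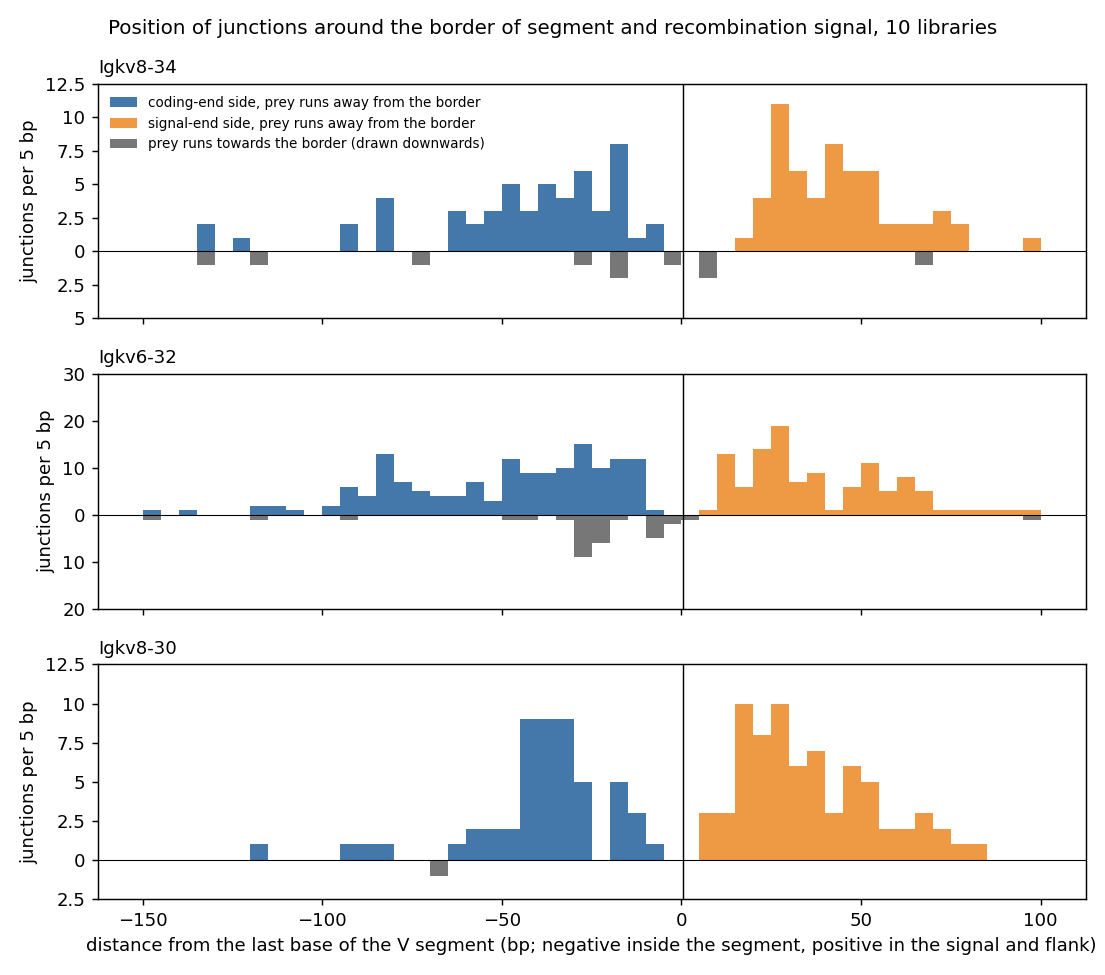
Junctions per 5 bp (y axis) against distance from the last base of the segment in bp (x axis; negative inside the segment, positive in signal and flank), summed over 10 libraries for each segment. Blue and orange bars are coding-end and signal-end junctions, whose prey runs away from the border, and grey bars drawn downwards are prey running towards it. No blue or orange bar stands within 2 bp of the border, and at Igkv6-32 a second group of coding-end junctions lies 60 to 99 bp inside the segment with grey bars between it and the border, where 26 junctions run towards it.

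At Igkv6-32 coding-end junctions also lay deeper in the segment, and some junctions ran in the opposite direction. Of its coding-end junctions within 200 bp, 44 of 155 (28.4%) lay 60 to 99 bases inside the segment, against 9 of 55 (16.4%) at Igkv8-34 and 4 of 54 (7.41%) at Igkv8-30. Between the border and that region, 26 of its 382 junctions (6.81%) ran towards the border, against 4 at Igkv8-34 and 0 at Igkv8-30. The share was higher at 8 of the 37 V segments of known orientation, counting the first 60 bases inside the segment. Of these only Igkv8-23-1 (3 of 30 junctions, 10%) and Igkv2-116 (3 of 32, 9.38%) had at least 20 junctions, and both were named after their values were seen. These 26 came from 9 libraries, all but etoposide replicate 1, with 11 in DRB with AsiSI and 6 in AsiSI. The comparison was made after seeing the profile and has no test.

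The sequence of Igkv6-32 holds a heptamer written backwards in this stretch. Shown once more with this match and the heptamer of its signal in capitals, it reads as follows.
Igkv6-32: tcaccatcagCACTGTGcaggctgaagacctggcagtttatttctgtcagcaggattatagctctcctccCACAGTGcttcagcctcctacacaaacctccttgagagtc

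The motif CACTGTG is the reverse complement of CACAGTG, so a match to it marks that heptamer on the opposite strand. The match does not overlap the heptamer of the signal here. It lies at chr6:70074077-70074083 with 53 bases between it and the border. Of 32 V segments of known orientation with enough bases read, Igkv6-32 was the only one with CACTGTG in its last 100 bases (3.12%), and none had CACAGTG there. At the same place Igkv8-34 and Igkv8-30 read differently, as the lines above show.

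Of all 68 junctions at Igkv6-32 that ran towards the border, 26 started in the 53 bases between the match and the border. They stood 5 to 50 bases inside the segment, with a median of 25. Each of the next 9 stretches of 53 bases held 0 to 5. At Igkv8-34, which lacks the match, the first 53 bases held 4 and the next 53 held 1, and at Igkv8-30 they held 0 and 1. The stretch was set by the match after the profile was seen. It is also the stretch next to the border, so the match and nearness to the border cannot be told apart here. None of the 8 segments with a higher share had the match in the bases read. In the 53 bases beyond the match on the coding-end side (60 to 112 bases inside the segment), Igkv6-32 had 46 of its 192 coding-end junctions (24.0%), Igkv8-34 9 of 72 (12.5%) and Igkv8-30 4 of 71 (5.63%). A match of 7 letters is a description of the sequence, and cutting at it was not measured here.

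A repeated join of this kind shows the orientation directly. It starts 27 bases inside Igkv6-32 and was read 6 times in 5 libraries, 5 of them with the same bait end. The line below gives 30 bases of bait, the shared bases in capitals and 30 bases of prey, 5′ to 3′ along the read.
Igkv6-32, towards the border: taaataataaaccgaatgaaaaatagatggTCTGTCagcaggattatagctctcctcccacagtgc

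After the shared bases this read runs through the end of the segment into cacagtg, the heptamer, with the border uncut. It therefore kept the coding sequence next to its own signal.

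Joins with shared bases were the rule. Of the 687 junctions, 589 (85.7%) had at least 1 base that fits both bait and prey, 30 (4.37%) were joined directly and 68 (9.90%) had inserted bases. The median overlap was 3 bases at each segment, and 57.2% of junctions had 2 to 4 shared bases. Overlaps of 5 or more bases numbered 133, of which 87 were at Igkv6-32, and the longest had 18 bases.

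By segment these proportions lay within a few points of each other. Shared bases stood at 84.0% of junctions at Igkv8-34, 86.6% at Igkv6-32 and 85.2% at Igkv8-30, and inserted bases at 12%, 8.64% and 11%. The longest insertion, of 26 bases, was at Igkv6-32, and the median insertion was 1 base at Igkv8-34 and 2 at each of the others.

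Signal ends and coding ends did not differ past the threshold in any of these shares. Over 6 libraries shared bases stood at 85.6% ± 6.31 of signal-end and 88.3% ± 6.19 of coding-end junctions, a difference of -2.63 ± 8.46 points (exact sign-flip p = 0.5, adjusted p = 0.75). Direct joins were 5.00% ± 3.51 and 1.90% ± 2.25 (exact p = 0.188, adjusted p = 0.562), higher at signal ends in 4 libraries and lower in 1. For inserted bases the difference was -0.464 ± 6.50 points (exact p = 0.906), and 1.86 points without DRB with AsiSI.

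**Figure D4:**
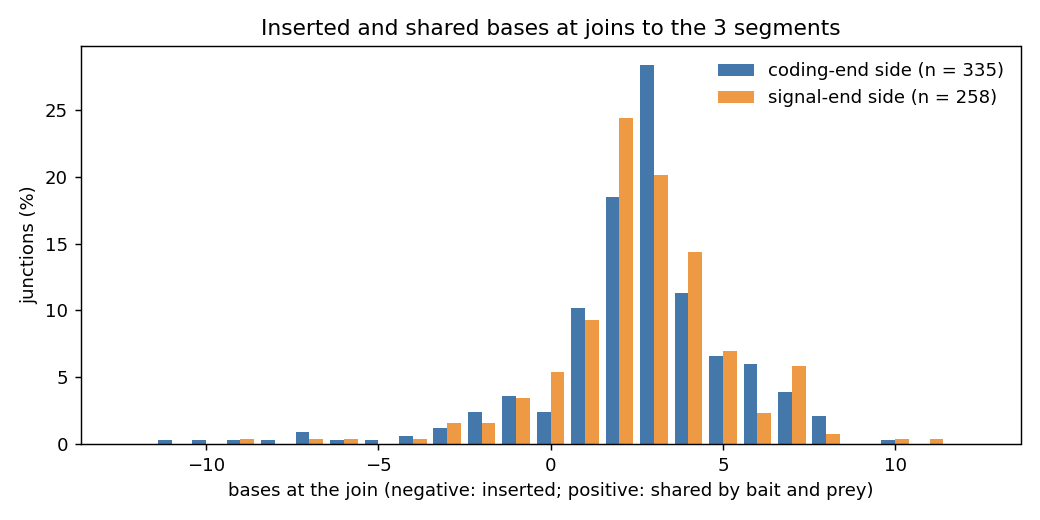
Percent of junctions (y axis) by the number of bases at the join (x axis; positive, bases shared by bait and prey; negative, inserted bases) for 335 coding-end and 258 signal-end junctions at Igkv8-34, Igkv6-32 and Igkv8-30, from -12 to 12 bases. Both kinds of end peak at 2 or 3 shared bases.

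The 3 segments were also compared with all 159 other annotated V segments, whether or not their orientation was known. Shared bases were at 88.5% ± 5.82 of junctions at the 3 segments and 84.5% ± 2.75 at the others (SD, n = 10). The difference was 4.05 ± 6.48 points (exact sign-flip p = 0.0762, adjusted p = 0.214), higher in 6 and lower in 4 libraries. Direct joins differed by -2.04 ± 4.13 points (exact p = 0.143, adjusted p = 0.214). With each library left out in turn this ran from -3.05 to -1.51 points. The -3.05 points came without IFN with etoposide, the library with the largest difference the other way (7.09 points). Only this setting passed (exact sign-flip, adjusted p = 0.0469), and that p was adjusted over the 3 shares and not over the settings tried. Inserted bases differed by -2.01 ± 5.37 points (exact p = 0.270).

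The bait end had lost a median of 20 bases in these joins, with quartiles of 9 and 46, and the medians were 20.5 at Igkv8-34, 18.0 at Igkv6-32 and 26.0 at Igkv8-30. Some bait ends were nearly complete, and 33 (4.80%) had lost 2 bases or fewer. The mean of the library medians was 22.2 ± 7.19 at the 3 segments and 24.8 ± 5.82 at the other V segments (SD, n = 10), a difference of -2.55 ± 9.34 bases (exact sign-flip p = 0.418).

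Some joins were read in more than 1 library. Of 585 distinct joins, defined by prey position, strand and bait end, 63 (10.8%) were seen in more than 1 library, 50 of these in more than 1 sequencing run and 13 within a single run. Prey alignments with the same far end as well occurred in more than 1 library in only 3 cases. Carry-over of molecules between libraries was not tested beyond this. Joins seen in more than 1 library had a median of 3 shared bases and the remaining joins 2.

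The 2 coding-end joins read most often with the same bait end are shown, and the signal-end join with the longest shared stretch among those read at least 4 times with the same bait end, because their shared bases mark where the join was made. They were picked after their counts were seen. Each line gives 30 bases of bait, the shared bases in capitals and 30 bases of prey along the read.
Igkv6-32, coding end, 15 bases lost: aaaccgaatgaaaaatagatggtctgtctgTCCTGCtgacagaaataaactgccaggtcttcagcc
Igkv6-32, coding end, 40 bases lost: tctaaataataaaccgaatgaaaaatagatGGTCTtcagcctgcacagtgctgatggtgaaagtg
Igkv6-32, signal end, 50 bases lost: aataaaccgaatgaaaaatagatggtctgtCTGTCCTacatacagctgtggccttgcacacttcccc

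The first of these starts at position 70074039 of chromosome 6, where 11 junctions in 8 libraries lie, 7 of them with the same bait end in 7 libraries. The bait end had lost 1 base, and 6 bases are shared. The second starts at 70074064 and was read 7 times in 7 libraries, each time with the same bait end and 5 shared bases. The third, on the signal side, starts at 70073973, where 7 junctions in 6 libraries lie, 4 of them with the same bait end in 4 libraries and 7 shared bases. At Igkv8-30 and Igkv8-34, which had fewer junctions in all, a single prey position held at most 6 and 5 junctions.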

How the data were processed

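Each row of the authors' deposited files is 1 junction. Per the file headers it gives the prey's position and strand, the read and where bait and prey align, without normalization or summed counts. The assay's usual pipeline is named in the labels, and bedtools, mm10 and GRCm38.p2 in the submitters' processing notes. The aligner is not given in the sources used here. All junctions were used except 83 off the main chromosomes. Segments came from the RefSeq table of GRCm38.p6, whose chromosome 6 positions fit mm10. Junctions within 500 bp went to the nearest segment.

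The border, heptamer and direction of a V segment were read from consensus sequence of the prey reads at its ends, as at least 11 of the 16 heptamer and nonamer bases and 3 more than in the other direction. Overlap was the number of read bases aligned to both bait and prey. The bait break was placed after the position where the number of bait ends fell most, among the longest bait ends. Bait bases lost were counted from there, and 7 of the 687 bait ends at the 3 segments reached beyond it. The kappa locus is the stretch that holds the annotated segments.

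Libraries of a group were compared with the exact permutation test, libraries within a pair with Fisher's exact test, and shares within libraries with the exact sign-flip test, all two-sided; p-values were adjusted by Benjamini-Hochberg and called under 0.05. Libraries needed at least 10 junctions on each side. Intervals are Clopper-Pearson, and 3 counts set the limit where none was seen. Both cover counting error only. Segments named besides the 3 were the J segments Igkj1, Igkj2, Igkj4 and Igkj5, the nearest V segment on either side, the 3 other V segments with most junctions and the 2 most alike in profile; Igkv6-25 was named after its count was seen. The members and lists were chosen with earlier results of these data known. Tests were checked on simulated data. Python 3.11.15 and scipy 1.17.1 were used. Alternatives were windows of 100 and 2000 bp, minimum counts, repeated joins, the replicate block and libraries left out.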

Additional observations from a re-analysis of the deposited data

How the results depend on the processing

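Of the alternative settings, 315 kept the direction and side of the threshold and 10 did not. The 315 include the comparison exactly at the cut, which had 0 on both sides and no direction to keep. For etoposide against untreated, the difference in share was 1.83 points with a window of 2000 bp and 1.81 points of junctions near V segments, against 0.561. It ran from -3.33 to 4.45 when 1 untreated or etoposide library was left out, with -2.41 without untreated replicate 1 and -3.33 without etoposide replicate 2. The rate per 1000 junctions near the bait was -2.40 and ran from -4.62 to -0.185 when 1 was left out. It was -1.58 with a window of 2000 bp, and per 1000 prey outside antigen receptor loci, a different unit, the difference was -115. With the replicate block the differences were the same, 0.561 points and -2.40, with exact p of 1.0 and 0.5, where 2 pairs cannot go below 0.5, and no call changed. Adding 2 pairs of AsiSI libraries against libraries without AsiSI, chosen after seeing the data, moved the called segment tests from 0 to 12. Of these calls 3 fell on the 3 segments, which were chosen from the same counts.

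Leaving out each of the 10 libraries in turn was completed after seeing the data. Signal ends against coding ends for inserted bases ran from -1.59 to 1.86 points, with 0.203 without etoposide replicate 2, 1.86 without DRB with AsiSI, 0.203 without all libraries that received etoposide and 1.92 without both AsiSI libraries. The 3 segments against other V segments turned to 0.170 points for inserted bases without the libraries that received etoposide. Bases lost at coding ends against other V segments ran from -3.00 (without IFN) to 2.07. Direct joins against other V segments ran from -3.05 (without IFN with etoposide, past the threshold) to -1.51 points. The cause of these moves was not tested. A filter on mapping quality was not run, because that field is 0 in every junction. Replicate 1 of untreated and of etoposide had 15 and 12 junctions at the 3 segments, too few for most comparisons within a library.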
